A study of Mus musculus with 24 samples.

Results

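Csf1r, C1qb, C1qc, Tyrobp, Fcer1g and Aif1 are 6 genes widely used as markers of macrophages. Of the 45037 probe sets tested on Affymetrix arrays of sorted mouse back skin cells, 8 carry their names here. They were found by name alone: every probe set that the authors' deposited tables of regulated genes assign to a gene of this group was kept. Any further probe sets of these genes that those tables do not list are unnamed here and were not read. Csf1r and C1qb have 2 such named probe sets each, and the brighter of these over all 24 arrays (1419872_at and 1437726_x_at) is meant below where no other is named. The study asked how beta-catenin activated in the epidermis acts on the dermis. Dermal fibroblasts were sorted as GFP+ cells and epidermal keratinocytes as ItgA6+ cells, from D2 mice with sustained activation (ectopic follicles), D2 mice with transient activation (anagen), neonatal wild-type mice and wild-type mice in telogen, the resting phase of the hair cycle. Each of these 8 groups has 3 arrays, labelled as biological replicates from numbered mice, and all mice share a mixed C57BL/6 and CBA background. As background knowledge, the D2 line drives a stabilised beta-catenin, fused to the hormone-binding part of the estrogen receptor, from the keratin 14 promoter of basal keratinocytes. The labels give neither the agent, the length of activation nor the ages, and they name no promoter for the GFP that all dermal sorts carry. D2 arrays therefore differ from wild-type telogen arrays in genotype and activation together, and these cannot be told apart. Genes carry a name here only where the study listed them as regulated on these same samples, so a change of a named gene is not independent evidence.

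Macrophages of the skin live mainly in the dermis, where they take up dead cells and matrix, and the epidermis holds Langerhans cells, relatives of macrophages that present antigen. Csf1r is the receptor for CSF1 and IL-34, the growth factors on which macrophages and Langerhans cells depend. C1qb and C1qc encode chains of C1q, the recognition subunit that starts the classical complement pathway, and in skin C1q is a product of macrophages rather than of keratinocytes. Tyrobp (DAP12) and Fcer1g (the Fc receptor gamma chain) are adaptors that pair with activating receptors and signal through the kinase Syk. Aif1 (IBA1) is an actin-binding protein of macrophages and microglia. Tyrobp, Fcer1g and Aif1 are also made by other leukocytes, so none of the 3 alone names a cell type.

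C1qb and C1qc lie side by side on mouse chromosome 4, with C1qa as the next gene, and their promoters are shown because the pair is the most macrophage-restricted of the group. The sequences are from RefSeq (GRCm38.p6), on the minus strand and written 5′ to 3′ towards the start of the gene. C1qb covers chr4:136886201-136886450 and C1qc covers chr4:136892937-136893164. Capitals mark matches to GAGGAA, or to its reverse complement TTCCTC, the purine-rich core bound by the myeloid factor PU.1, searched on both strands.
C1qb: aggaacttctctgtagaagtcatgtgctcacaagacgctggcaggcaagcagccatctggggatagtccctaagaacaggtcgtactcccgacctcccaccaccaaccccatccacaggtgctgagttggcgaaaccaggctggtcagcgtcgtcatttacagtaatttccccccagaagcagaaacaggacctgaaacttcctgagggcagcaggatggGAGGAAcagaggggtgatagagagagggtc
C1qc: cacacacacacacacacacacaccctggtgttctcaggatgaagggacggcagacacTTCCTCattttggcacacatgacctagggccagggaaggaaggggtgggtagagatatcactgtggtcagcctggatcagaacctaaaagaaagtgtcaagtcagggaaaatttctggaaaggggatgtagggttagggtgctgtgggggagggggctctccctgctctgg
Each of these stretches held 1 match. Of 32851 promoters searched over the 250 bases before the start, 7639 (23.3%) held at least 1, so a match here is a description and not a binding site. Fcer1g and Aif1 were also in the promoter table, with 0 matches and 1 match in those 250 bases.

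The sorts carried the genes of their compartments in every state: Col1a2, a collagen chain of fibroblasts, was higher in dermal than epidermal sorts, and Itga6 and Trp63, genes of basal keratinocytes, were lower, each called in 4 of 4 states. Values are log2 signals as deposited, differences are on the same log2 scale with the standard error (SE) from limma, and a call is a Benjamini-Hochberg adjusted p under 0.05 over 45037 probe sets. Array medians lay between 4.34 and 5.5, the highest being epidermal transient replicate 4. The 3 arrays of a group limit the precision of every value below. All probe sets together shifted too: their median difference from telogen was 0.42 in sustained, 0.13 in transient and 0.18 in neonatal dermis, and 0.14, 0.18 and -0.01 in the same states of epidermis.

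In the epidermal sorts the 6 genes moved together, with higher means in neonatal and telogen arrays than in the D2 arrays. In the dermal sorts 5 of them stayed low in every state, while Csf1r was high in telogen and in transient arrays and low in sustained and neonatal arrays. The plot of signals by array shows both patterns. Because these are bulk RNA samples, fewer cells of a type and less RNA per cell cannot be told apart in any of these results.

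**Figure D1:**
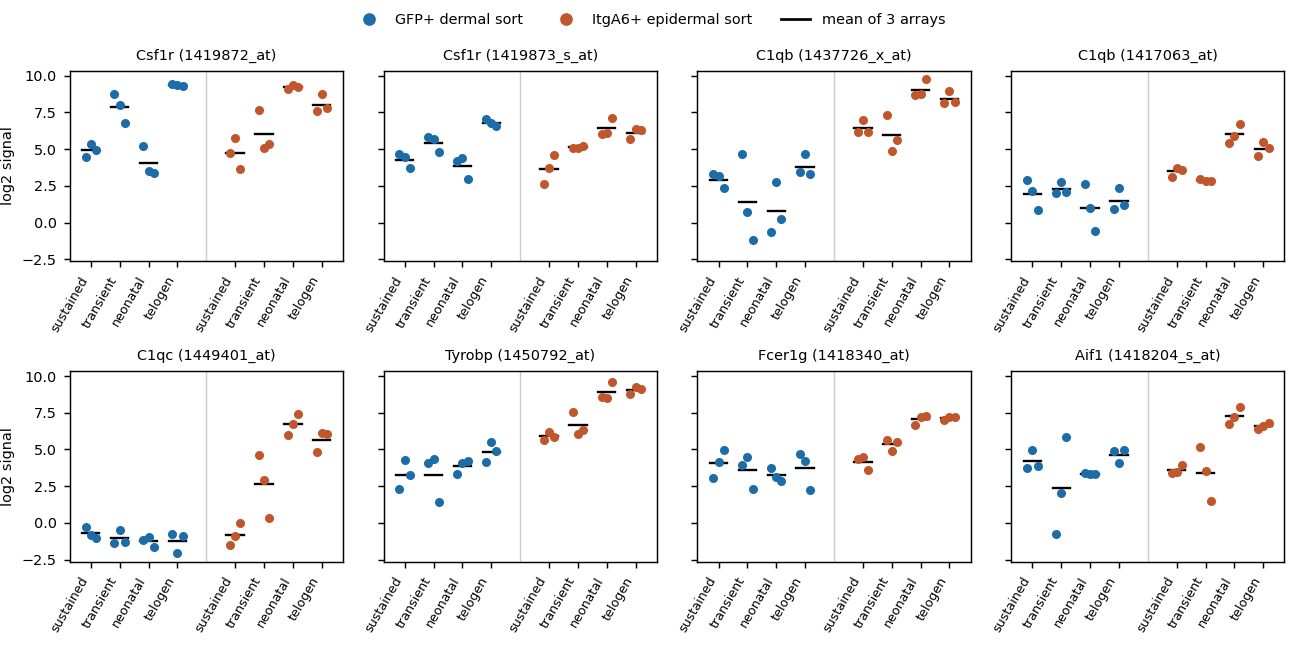
Log2 signal of the 8 probe sets on 24 arrays, by state, in GFP+ dermal sorts (blue) and ItgA6+ epidermal sorts (orange). Points are arrays and black lines are means of 3 arrays. Dermal Csf1r (1419872_at) lay between 4.44 and 5.38 in sustained and between 9.29 and 9.44 in telogen arrays, while dermal C1qc stayed at or below -0.25 in all 12 dermal arrays.

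Tyrobp, the DAP12 adaptor, fell in sustained epidermis. It read 5.62, 6.22 and 5.84 in the 3 sustained epidermal arrays and 8.79, 9.26 and 9.14 in the telogen arrays. All sustained arrays lay far below all telogen arrays, a difference of -3.17 ± 0.43 (SE), 9.01-fold on the linear scale (limma adjusted p = 0.0125). Fcer1g, the second adaptor, read 4.38, 4.50 and 3.61 in sustained and 7.02, 7.19 and 7.20 in telogen epidermal arrays. Its groups did not overlap either, with a fall of 2.97 ± 0.32 (7.85-fold, limma adjusted p = 0.00545).

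C1qc read -1.50, -0.91 and -0.01 in sustained epidermal arrays and 4.84, 6.11 and 6.03 in telogen epidermal arrays. It fell by 6.47 ± 0.94 (limma adjusted p = 0.0136), but the sustained values sit at the dim end of the array, where as few as 0.9% of probe sets lie lower, so that the size of this fall is poorly known. C1qb kept a clear signal in the same sustained arrays, at 6.19, 6.96 and 6.19, against 8.14, 8.96 and 8.20 in telogen arrays. The C1qb groups did not overlap, but the difference of -1.99 ± 0.58 did not pass (limma adjusted p = 0.17), nor did the second C1qb probe set (-1.55 ± 0.36, limma adjusted p = 0.0868).

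Csf1r read 4.73, 5.79 and 3.65 in sustained epidermis and 7.57, 8.74 and 7.78 in telogen epidermis. The groups were apart, with a difference of -3.30 ± 0.71 that did not pass (limma adjusted p = 0.0644). Its second probe set 1419873_s_at passed, with 2.64, 3.69 and 4.62 in sustained and 5.69, 6.38 and 6.30 in telogen arrays (-2.48 ± 0.48, limma adjusted p = 0.042). Aif1 read 3.43, 3.48 and 3.93 in sustained and 6.40, 6.57 and 6.80 in telogen arrays, again without overlap (-2.98 ± 0.74, limma adjusted p = 0.108).

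Over the group, 4 of 8 probe sets were called lower in sustained than in telogen epidermis (Csf1r 1419873_s_at, C1qc, Tyrobp and Fcer1g) and 0 higher, where 1.15% of all probe sets were called and 0.522% were called lower. Of the genes named by the study, 3.22% were called lower. The median difference was -3.07 over the 6 genes and 0.14 over all probe sets. All 8 probe sets had no overlap between sustained and telogen arrays, with every sustained value lower, which held for 9.57% of all probe sets. The count of 4 became 1 without telogen replicate 2, 3 or 4 or sustained replicate 2, each time Fcer1g. With the replicate number as a block it became 0, and the smallest adjusted p of the 4 was then 0.0935.

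In transient epidermis the same genes lay between sustained and telogen or close to sustained. Tyrobp read 7.55, 6.07 and 6.35 in transient epidermal arrays, against 8.79, 9.26 and 9.14 in telogen arrays. It fell by 2.41 ± 0.43 (5.31-fold, limma adjusted p = 0.0378). Fcer1g, at 5.66, 4.87 and 5.54 in transient and 7.02, 7.19 and 7.20 in telogen arrays, fell by 1.78 ± 0.32 (3.43-fold, limma adjusted p = 0.04). The second C1qb probe set 1417063_at fell as well, with 3.00, 2.82 and 2.86 in transient and 4.55, 5.50 and 5.07 in telogen arrays (-2.14 ± 0.36, limma adjusted p = 0.0325). None of these 3 had overlapping groups.

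Csf1r read 7.66, 5.07 and 5.37 in transient epidermis, so that replicate 2 overlapped the telogen arrays (7.57, 8.74 and 7.78) and the difference of -2.00 ± 0.71 did not pass (limma adjusted p = 0.197). C1qc was the most spread, at 4.64, 2.91 and 0.32 in transient arrays against 4.84, 6.11 and 6.03 in telogen arrays (-3.03 ± 0.94, limma adjusted p = 0.154). Aif1 was spread too, at 5.14, 3.51 and 1.47 against 6.40, 6.57 and 6.80 (-3.22 ± 0.74, limma adjusted p = 0.0842). Transient replicate 2 was the highest of its group for 7 of 8 probe sets, so the arrays of this group were ordered alike by most of the genes.

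Of the 8 probe sets 3 were called lower in transient than in telogen epidermis and 0 higher, where 0.844% of all probe sets were called and 0.167% were called lower. Of the named genes, 0.987% were called lower. In 7 of 8 probe sets the arrays did not overlap and lay lower in transient, as in 9.22% of all probe sets. The count of 3 was 0 without telogen replicate 2, 3 or 4, without transient replicate 3 or 4, and with the replicate number as a block. Without transient replicate 2 it stayed at 3, with Aif1 and C1qb 1437726_x_at called in place of Fcer1g and C1qb 1417063_at.

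Some genes of other cell types fell in the same D2 epidermal arrays. Col1a2 averaged 7.21 in sustained, 6.84 in transient and 9.80 in telogen epidermis, and was called lower in both D2 states (limma adjusted p = 0.00904 in sustained and 0.00633 in transient). Col3a1, another fibroblast collagen, averaged 7.15 in sustained, 6.32 in transient and 9.54 in telogen epidermis, and was called lower in both as well (limma adjusted p = 0.0266 and 0.0117 in that order). They were 2 of 11 fibroblast genes called lower in each comparison and 0 were called higher, beside 3.22% of named genes called lower in sustained and 0.987% in transient epidermis. The mean over the 11 lay between 4.63 and 5.08 in sustained, 4.12 and 5.03 in transient and 5.19 and 6.02 in telogen epidermal arrays. The median difference from telogen over the 11 was -0.07 in sustained and -0.77 in transient epidermis. The fall was not shared by all 11, as Fbln1 averaged 9.31 in sustained against 8.26 in telogen epidermis. In sustained epidermis Krt1, a keratin of differentiating keratinocytes, was also lower (1 of 7 keratinocyte genes), and Mitf, a melanocyte transcription factor, was lower in both D2 states (1 of 4 melanocyte genes). The part of these cells in the values of the 6 genes was not tested.

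Sustained and transient epidermis were not told apart by these genes: 0 of 8 probe sets were called by limma, where 0.0155% of all probe sets were, and 3 of 8 had an unadjusted p under 0.05. The interval of the sustained minus transient difference was -1.73 to 0.20 for Tyrobp and -2.89 to 0.28 for Csf1r, so that differences of that size remain possible. Fcer1g read 4.38, 4.50 and 3.61 in sustained and 5.66, 4.87 and 5.54 in transient arrays, apart from each other (-1.20 ± 0.32, limma adjusted p = 0.33). Without adjustment its interval of -1.92 to -0.47 did not reach 0.

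Neonatal epidermis had the highest Csf1r of the epidermal states, at 9.13, 9.34 and 9.23, against 7.57, 8.74 and 7.78 in telogen. The groups did not overlap, but the difference of 1.20 ± 0.71 did not pass (limma adjusted p = 0.368). Tyrobp read 8.60, 8.48 and 9.62 in neonatal and 8.79, 9.26 and 9.14 in telogen arrays, which overlapped (-0.16 ± 0.43, limma adjusted p = 0.878). C1qb, at 8.67, 8.73 and 9.76 in neonatal arrays, likewise overlapped telogen (0.62 ± 0.58, limma adjusted p = 0.599). Of the 8 probe sets 0 were called by limma between neonatal and telogen epidermis, where 6.99% of all probe sets were, and 1 had an unadjusted p under 0.05. The neonatal epidermal arrays also carried more signal of fibroblast genes, with 4 of 11 called higher than in telogen and 0 lower (12.3% of named genes were called higher), and its part in these values was not tested.

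**Figure D2:**
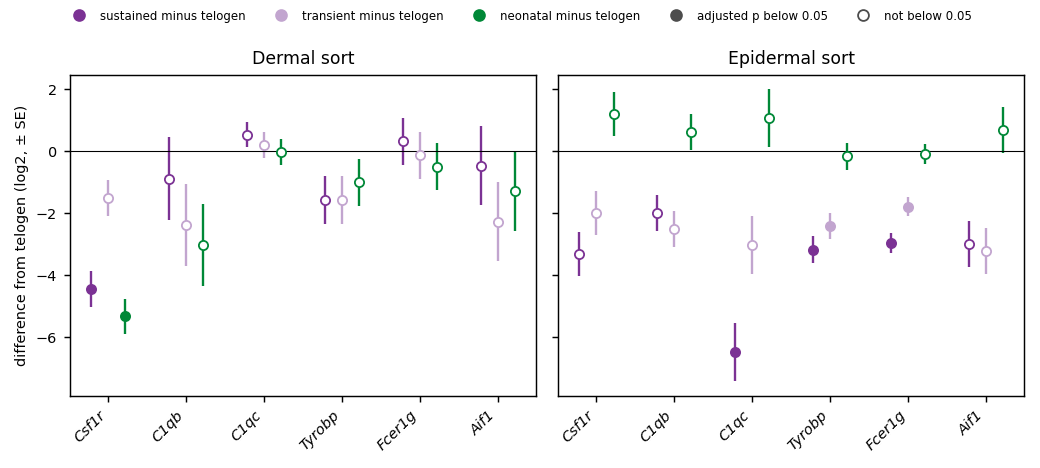
Difference from telogen in log2 units (± SE of limma) for the 6 genes in dermal sorts (left) and epidermal sorts (right). Filled points have an adjusted p below 0.05 and open points do not. Csf1r alone was called in dermis, in sustained (-4.43) and neonatal (-5.33) arrays, while in epidermis C1qc, Tyrobp and Fcer1g were called in sustained arrays and Tyrobp and Fcer1g in transient arrays.

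In the dermal sorts Csf1r changed by state. It read 4.44, 5.38 and 4.96 in sustained dermal arrays and 9.44, 9.35 and 9.29 in telogen dermal arrays, which were close to each other. Sustained dermis was 21.6-fold lower on the linear scale (-4.43 ± 0.58, limma adjusted p = 0.00218). Neonatal dermal arrays read 5.23, 3.51 and 3.35, also far below telogen (-5.33 ± 0.58, 40.2-fold, limma adjusted p = 0.000381). The neonatal and sustained values overlapped each other.

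Transient dermal arrays stood between, at 8.74, 8.03 and 6.78, all below telogen, with a difference of -1.51 ± 0.58 that did not pass (limma adjusted p = 0.288). Sustained dermis was lower than transient dermis by 2.92 ± 0.58 for Csf1r, without overlap (limma adjusted p = 0.036). This last call was lost on leaving out any of transient replicates 2 and 3 or sustained replicates 2, 3 and 5, with adjusted p between 0.0645 and 0.126, and with the replicate number as a block (-3.22, limma adjusted p = 0.133). The second Csf1r probe set 1419873_s_at read 4.68, 4.46 and 3.74 in sustained, 5.86, 5.70 and 4.80 in transient, 4.19, 4.42 and 2.94 in neonatal and 7.04, 6.78 and 6.60 in telogen dermal arrays. It kept the order of the states, with -2.52 ± 0.44 for sustained (limma adjusted p = 0.00786, and 0.0551 with the replicate block) and -2.96 ± 0.44 for neonatal minus telogen (limma adjusted p = 0.00226).

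None of the other 5 genes was called in these dermal comparisons of states, though some lay lower than in telogen. Their mean lay between 2.90 and 3.29 in telogen, 1.74 and 2.45 in neonatal, 1.43 and 2.23 in transient and 2.43 and 3.15 in sustained dermal arrays. Tyrobp read 2.34, 4.27 and 3.24 in sustained and 4.15, 5.49 and 4.93 in telogen dermal arrays, with 1 overlapping array (-1.57 ± 0.77, limma adjusted p = 0.213). C1qb read 3.28, 3.16 and 2.34 in sustained and 3.42, 4.69 and 3.30 in telogen arrays, just without overlap (-0.88 ± 1.33). In neonatal dermis C1qb read -0.62, 2.76 and 0.23 and Aif1 3.43, 3.31 and 3.32, each below all telogen arrays, as for 13.6% of all probe sets. The second C1qb probe set overlapped there. Fcer1g, with 3.03, 4.18 and 4.95 in sustained and 4.68, 4.22 and 2.26 in telogen arrays, overlapped widely (0.33 ± 0.76). Aif1 was erratic in transient dermis, at -0.75, 2.01 and 5.87, against 4.90, 4.09 and 4.95 in telogen (-2.27 ± 1.27, limma adjusted p = 0.455). C1qc lay between -2.06 and -0.25 in all 12 dermal arrays, where 1.8% to 5.8% of probe sets lie lower, so that no change of C1qc could be measured in dermis.

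Both Csf1r probe sets, 2 of 8, were called lower in sustained dermis, where 11.0% of all probe sets were called and 3.80% were called lower. The same 2 of 8 were called lower in neonatal dermis, where 13.3% were called and 6.06% called lower. Of the genes named by the study, 19.2% were called lower in sustained and 28.2% in neonatal dermis, so 2 of 8 is close to those shares. In transient against telogen dermis 0 of 8 were called by limma (0.488% of all), and 2 had an unadjusted p under 0.05. In sustained against transient dermis 1 of 8 was called (2.22% of all, 1.05% lower, and 6.05% of named genes lower). All of these dermal calls are of 1 gene, Csf1r.

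Between the sorts, most of the 6 genes were lower in the fibroblast gate than in the keratinocyte gate. In telogen, Tyrobp read 4.15, 5.49 and 4.93 in dermal and 8.79, 9.26 and 9.14 in epidermal arrays (-4.21 ± 0.65, 18.5-fold lower in dermis, limma adjusted p = 8.07e-05). C1qb read 3.42, 4.69 and 3.30 in dermal and 8.14, 8.96 and 8.20 in epidermal telogen arrays (-4.63 ± 1.07, limma adjusted p = 0.00327). Both genes were far apart with no overlap, and Fcer1g (-3.41 ± 0.60, limma adjusted p = 0.000308) and C1qc (-6.90 ± 0.75, limma adjusted p = 1.72e-06) were lower in dermis as well. The size for C1qc is poorly known, because its dermal values sit at the dim end. Aif1 lay lower without passing (-1.94 ± 1.08, limma adjusted p = 0.216).

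Csf1r lay the other way in telogen, with 9.44, 9.35 and 9.29 in dermis and 7.57, 8.74 and 7.78 in epidermis. Every dermal array lay above every epidermal one, though the difference of 1.33 ± 0.67 did not pass (limma adjusted p = 0.167). In transient arrays it read 8.74, 8.03 and 6.78 in dermis and 7.66, 5.07 and 5.37 in epidermis, with overlap (1.82 ± 0.67, limma adjusted p = 0.0546). In neonatal arrays the order was turned: Csf1r read 5.23, 3.51 and 3.35 in dermis and 9.13, 9.34 and 9.23 in epidermis (-5.20 ± 0.67, limma adjusted p = 2.09e-05).

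Dermis was called lower for 8 of 8 probe sets in neonatal arrays (15.8% of all called, 8.33% lower) and for 5 of 8 in telogen arrays (25.6% called, 16.4% lower). It was called lower for 4 of 8 in transient arrays (25.6% called, 16.5% lower) and for 2 of 8 in sustained arrays, C1qb and Tyrobp (12.6% called, 6.22% lower). Of the named genes, 19.6% were called lower in dermis in neonatal, 30.3% in telogen, 26.8% in transient and 15.9% in sustained arrays. No member was called higher in dermis in any state by this test, but Csf1r 1419872_at was called higher in transient dermis under other settings. With arrays centred on their median it was 2.27 (limma adjusted p = 0.0287), and the call was also made with an offset of 16 (0.0182), with dim probe sets left out (0.0303) and with trend and robust eBayes (0.0336). It was made as well without dermal transient replicate 4 (0.0258) and without epidermal transient replicate 2 (0.00667). In sustained arrays the sorts stood close for the rest: Fcer1g read 3.03, 4.18 and 4.95 in dermis and 4.38, 4.50 and 3.61 in epidermis (-0.11 ± 0.60, limma adjusted p = 0.951). The sustained count of 2 became 1 or 0 on leaving out any of the 6 arrays, and it was 0 without dermal sustained replicate 2.

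Whether a state's difference from telogen was the same in both sorts was tested as an interaction, dermis minus epidermis. For neonatal minus telogen it was -6.53 ± 0.95 for Csf1r (limma adjusted p = 0.000439), made of -5.33 in dermis and 1.20 in epidermis. The second Csf1r probe set gave -3.25 ± 0.66 (limma adjusted p = 0.00619). These were 2 of 8 probe sets called, where 5.67% of all and 24.6% of named genes were, so the count is close to the share of named genes. For sustained minus telogen, C1qc (7.0 ± 1.06, limma adjusted p = 0.00127) and Fcer1g (3.31 ± 0.85, limma adjusted p = 0.0423) were called, 2 of 8 where 2.77% of all and 13.3% of named genes were. Here the epidermal values fell and the dermal differences did not pass, and C1qc was at the dim end in dermis throughout.

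For Csf1r itself the sustained interaction was -1.13 ± 0.95 (limma adjusted p = 0.65), as it lay lower than telogen in both sorts. The call of Fcer1g was lost without dermal telogen replicate 4, any epidermal telogen replicate, dermal sustained replicate 3 or 5 or any epidermal sustained replicate, with adjusted p between 0.0607 and 0.112. In the transient comparison 0 of 8 interactions were called by limma, where 0.990% of all were, and 2 had an unadjusted p under 0.05.

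The 6 genes ran closely together in epidermis and loosely in dermis. Over the 12 epidermal arrays Pearson r was between 0.80 and 0.95 for the 10 pairs without Csf1r and between 0.87 and 0.92 for the 5 pairs with it. Over the 12 dermal arrays it was between -0.30 and 0.56 for the pairs without Csf1r and between -0.12 and 0.41 for those with it. These are descriptions of arrays that share 4 states per sort, and the low dermal signals carry more noise. Averaged over the other 5 genes, the dermal arrays lay between 1.43 and 3.29 and the epidermal arrays between 3.62 and 8.40, with no overlap. The plot of Csf1r against that average shows the 3 dermal telogen arrays at the right with averages of 2.90 to 3.29, below every epidermal array.

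**Figure D3:**
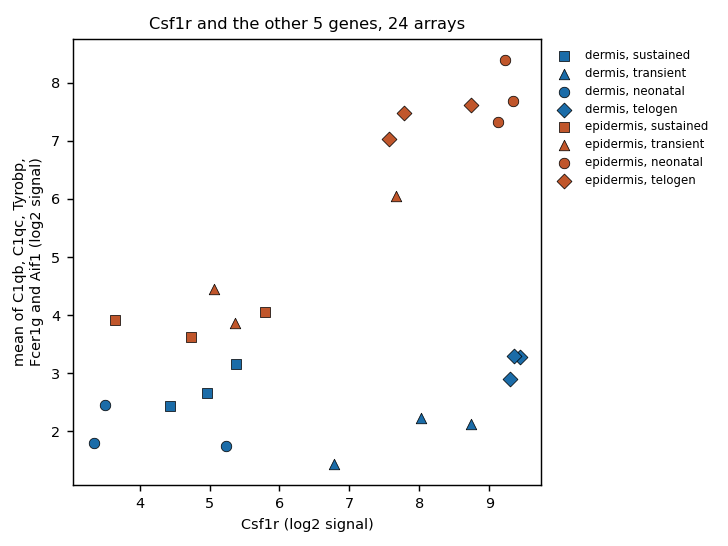
Log2 signal of Csf1r (x axis) against the mean log2 signal of C1qb, C1qc, Tyrobp, Fcer1g and Aif1 (y axis) on 24 arrays, with colour for the sort and shape for the state. Epidermal arrays run along a diagonal from sustained, with means of 3.62 to 4.05, up to neonatal, with means of 7.33 to 8.40. Dermal arrays spread along Csf1r, from 3.35 to 9.44, at means of 1.43 to 3.29.

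Csf1r has its ligands among the named genes. Csf1, which fibroblasts are known to secrete, read 8.28 in sustained dermis and 11.60 in telogen dermis on average, and fell by 3.32 ± 0.41 (limma adjusted p = 0.00179). It also fell in neonatal dermis (8.93, -2.68 ± 0.41, limma adjusted p = 0.00262) and was lower in sustained than in transient dermis (8.28 against 10.63, -2.34 ± 0.41, limma adjusted p = 0.0236). Csf1 and its receptor thus moved the same way in these 3 dermal comparisons. Il34, the ligand that keratinocytes make, averaged 2.65 in sustained, 3.06 in transient, 3.66 in neonatal and 4.61 in telogen epidermis, with no call against telogen (limma adjusted p between 0.294 and 0.515).

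Csf2rb, the shared beta chain of the receptors for GM-CSF, IL-3 and IL-5, followed Csf1r in dermis, with averages of 1.80 in sustained, 5.59 in transient, -0.13 in neonatal and 7.22 in telogen arrays. It fell in sustained (-5.42 ± 1.08, limma adjusted p = 0.0129) and in neonatal dermis (-7.35 ± 1.08, limma adjusted p = 0.00198), although its lowest values sit at the dim end. Besides Csf1r, the list for this receptor family names 5 genes, the CSF1 receptor ligands Csf1 and Il34 and the GM-CSF receptor family chains Csf2ra, Csf2rb and Csf2rb2. Of these 5, Csf1 and Csf2rb were called lower and 0 higher in both comparisons, beside 19.2% of all named genes called lower in sustained and 28.2% in neonatal dermis. The median difference over the 6 with Csf1r was -2.41 in sustained and -2.60 in neonatal dermis, beside 0.42 and 0.18 over all probe sets.

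The complement genes ran the other way from C1q between the sorts. All 8 named ones, none of them a C1q chain, were higher in dermal than in epidermal telogen arrays, where 9.27% of all probe sets and 1277 of the 4560 named genes were called higher. C3, the central complement protein, averaged 6.23 in sustained, 10.18 in transient, 3.32 in neonatal and 11.19 in telogen dermis. It fell in sustained dermis (-4.96 ± 0.43, limma adjusted p = 0.000567) and in neonatal dermis (-7.87 ± 0.43, limma adjusted p = 1.98e-05). Serping1, the inhibitor of the C1 proteases, fell by 1.87 ± 0.22 in sustained dermis (limma adjusted p = 0.00144). In each of these 2 dermal comparisons 6 of 8 complement genes were called lower and 0 higher. Of all named genes 19.2% were called lower in sustained and 28.2% in neonatal dermis. C1qb and C1qc gave no dermal call, but C1qc was at the dim end in all 12 dermal arrays, so a fall of it could not be measured.

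Among the 6 named partners of the Tyrobp and Fcer1g adaptors, Syk, the kinase both adaptors recruit, was higher in sustained dermis (6.70 against 4.06 in telogen, 2.65 ± 0.47, limma adjusted p = 0.00821). It did not follow the adaptors in epidermis, where sustained minus telogen was -0.47 ± 0.24 (limma adjusted p = 0.459). In sustained dermis 2 of 6 were called higher, Syk among them, and 0 lower, beside 823 of the 4560 named genes called higher. In sustained epidermis 1 of 6 was called lower, Clec4n, a C-type lectin receptor that signals through Fcer1g, and 0 higher. Fcgr3, an Fc receptor that needs Fcer1g at the cell surface, was lower in dermal than epidermal telogen arrays (-2.53 ± 0.53, limma adjusted p = 0.00145) and gave no call in epidermis between sustained and telogen (-1.56 ± 0.50, limma adjusted p = 0.204).

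Other markers of macrophages were lower in sustained epidermis too. Of 24 named ones, 9 were called lower and 0 higher in sustained than telogen epidermis. In telogen 21 were called lower and 2 higher in dermal than epidermal arrays, where 30.3% of named genes were called lower. Ctss, a cathepsin of antigen-presenting cells, fell by 3.61 ± 0.58 in sustained epidermis, to 6.44 against 10.05 in telogen (limma adjusted p = 0.0221). In sustained dermis 1 of the 24 was called higher and 0 were called lower, beside the fall of Csf1r. Of the 4560 named genes 823 were called higher and 19.2% lower there. Some of the 24 were dim in telogen dermis, such as Clec4n with an average of -0.68, so a fall of these could not be measured. In neonatal dermis, where Csf1r fell as well, 3 of the 24 were called lower (Lyz1, Lyz2 and Fcgr2b) and 0 higher. Of all named genes 28.2% were called lower there. Fcgr2b averaged 0.20 in neonatal and 5.83 in telogen dermis (limma adjusted p = 0.0074).

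In neonatal epidermis 7 of the 24 were called lower than telogen and 1 higher, beside 16.8% and 12.3% of all named genes. Among those lower was Apoe, a lipid carrier, with 7.57 against 10.12 (-2.55 ± 0.64, limma adjusted p = 0.0432), while 0 of the 6 were called. Of the leukocyte genes 4 of 10 were called lower and 0 higher in sustained epidermis, beside the 3.22% of all named genes called lower. Ptprc (CD45), which marks all leukocytes, averaged 5.20 in sustained and 8.16 in telogen epidermis (-2.97 ± 0.46, limma adjusted p = 0.0211).

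Markers of other immune cells moved in the same arrays. Of 13 named genes of Langerhans and dendritic cells, 9 were called lower and 0 higher in sustained epidermis, and their mean lay between 3.66 and 3.99 in sustained, 4.66 and 6.05 in transient, 5.19 and 6.02 in neonatal and 7.29 and 7.39 in telogen epidermal arrays. H2-Aa, an MHC class II chain that presents antigen, fell to 6.09 in sustained against 10.14 in telogen epidermis (-4.05 ± 0.53, limma adjusted p = 0.0104), and to 7.94 in neonatal epidermis (-2.19 ± 0.53, limma adjusted p = 0.0357). S100a9 and Il1b, the only 2 of 11 genes on the neutrophil list that are named, and 1 of 5 T cell genes (Il7r) were called lower in sustained epidermis. These 2 genes alone do not name neutrophils. The part of each of these cell types in the signal of the 6 genes was not tested.

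In dermis the mean over the leukocyte list lay between 2.15 and 4.10 in all states, although single genes such as Arhgdib (7.26 in telogen and 9.21 in neonatal dermis) were higher, and 2 of 10 were called lower in sustained dermis, a share close to the 19.2% of all named genes. Laptm5, a lysosomal protein of blood cells, averaged 4.19 in sustained, 6.66 in transient, 4.07 in neonatal and 7.47 in telogen dermis (-3.27 ± 0.49 for sustained, limma adjusted p = 0.00376). Cd53, a tetraspanin of leukocytes, averaged 1.90 in sustained and 5.07 in telogen dermis (-3.17 ± 0.64, limma adjusted p = 0.0136). Ptprc gave no dermal call for sustained (3.39 against 2.93, 0.47 ± 0.62, limma adjusted p = 0.655). In sustained dermis 2 of 3 endothelial genes were called lower and 3 of 7 keratinocyte genes higher. Of 11 fibroblast genes 5 were called lower and 1, Twist2, higher. Of the 4560 named genes 877 (19.2%) were called lower and 823 higher. The part of these cell types in the Csf1r value was not tested.

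**Figure D4:**
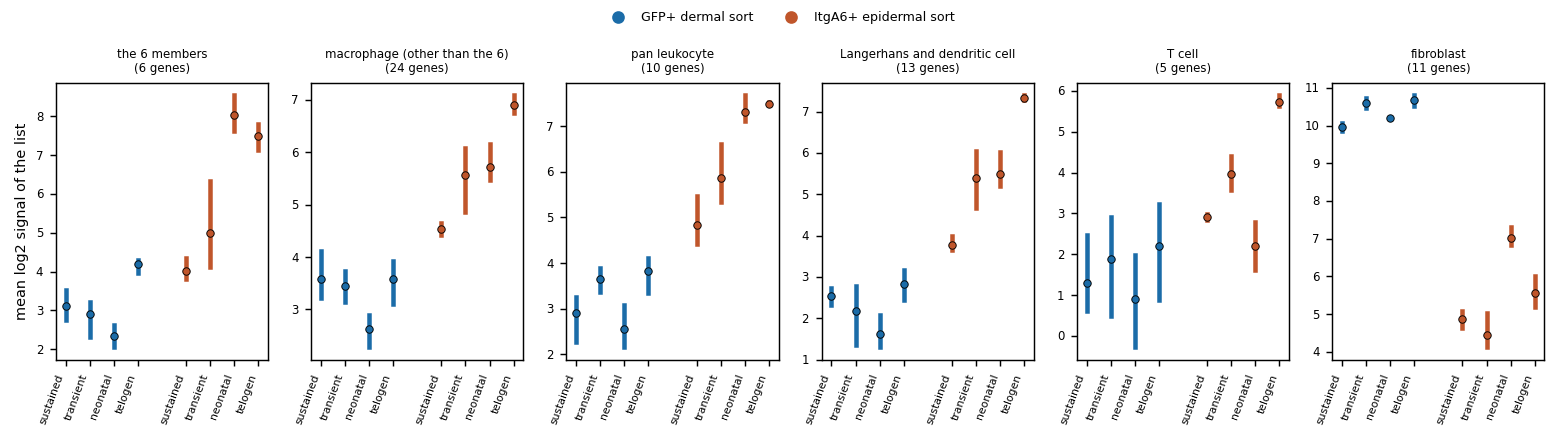
Mean log2 signal of 6 marker lists by state in dermal sorts (blue) and epidermal sorts (orange). Points are the mean of 3 arrays and bars run from the lowest to the highest array. The Langerhans and dendritic list lay between 3.66 and 3.99 in sustained and between 7.29 and 7.39 in telogen epidermis, and the 6 genes lay between 3.81 and 4.34 in sustained and between 7.13 and 7.80 in telogen epidermis.

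The genes most like the 6 were sought by Pearson r with their mean. Over all 24 arrays the 10 first included Cd53 (0.92), Cd74 (0.91), Ctss (0.91), Mrc1 (0.91), Krt10 (0.90), Laptm5 (0.90), Cds1 (0.88), Ctsc (0.88) and Fgfbp1 (0.87). Most of that list are leukocyte genes, but Krt10 is a keratin of differentiating keratinocytes, and every gene higher in epidermis gains from the gap between the sorts. Within the 12 epidermal arrays the first 5 were Cd52 (0.96), Laptm5 (0.96), Cd53 (0.94), Ctss (0.94) and Lcp1 (0.94), all of them leukocyte or macrophage genes. Within the 12 dermal arrays they were Pm20d1 (0.96), Zfp87 (0.93), Bicd2 (0.92), Tmem51 (0.91) and Pla2g7 (0.91), of which none is on the fixed lists of leukocyte genes. Absence from a list does not say which cells make a gene. In dermis the median r was 0.02 for pairs of the 6 without Csf1r, so their mean there does not stand for a pattern they share.

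The authors' deposited table for dermis listed Csf1r alone of the 6 genes, as down in sustained over telogen (22.5-fold and 5.35-fold for its 2 probe sets), in neonatal over telogen (25.53-fold and 4.58-fold) and in sustained over transient (8.13-fold and 2.71-fold). In neonatal over transient dermis it listed only the probe set 1419872_at, as down by 9.23-fold. In the authors' deposited table for epidermis 7 of the 8 probe sets were down in sustained over telogen, by 2.76-fold to 10.13-fold, and 6 were down in transient over telogen, by 2.59-fold to 8.82-fold. It also held all 8 as up in neonatal over sustained epidermis, by 3.81-fold (Csf1r) to 17.6-fold (Csf1r, the other probe set). All 8 were listed as up in neonatal over transient epidermis too, by 2.53-fold to 12.48-fold. For C1qc the authors' deposited table gave 5.1-fold between sustained and telogen epidermis, and no fold is set beside it here because the sustained values sit at the dim end.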

How the data were processed

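RNA of the sorted cells was amplified and hybridized, per the labels' protocols, to 24 arrays of 45101 probe sets, 3 in each of 8 groups. The deposited value table holds log2 signals. Once these are made linear and 2% of values are trimmed at each end, every array averages 100.0. RMA and MAS5 appear in the submitters' processing notes. Which of them made which table, their versions and the genome build are not given in the sources used here. The authors' tables list regulated probe sets, each with a linear fold (a ratio above 1) and whether it was up or down, per the file headers.

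From these values 64 control probe sets were left out and 45037 were tested as deposited, with no pseudocount and values below 0 kept. The authors' tables list 7261 probe sets, of which 6480 (14.4% of all) have 1 gene, 267 have several and 514 have no gene. The other 37776 are unnamed here. This names 4560 genes, and 6222 identifiers matched a RefSeq gene table. State comparisons were fitted by limma 3.58.1, run in R 4.3.3, on the 12 arrays of each sort, as group means with eBayes at its defaults. Dermis minus epidermis and interactions used the 24 arrays. A call needed an adjusted p (Benjamini-Hochberg, 45037 probe sets) under 0.05. The pipeline was tested on simulated data.

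The genes named are the 6, members of marker lists written from background knowledge (at most 6 per list, those of highest mean level, and any that a small count required, chosen after their values were seen), the 10 most like the 6 over 24 arrays and the 5 most like them within each sort, and the gate genes Itga6, Col1a2 and Trp63. Genes of these lists that the text does not name are not reported here. Members and lists were chosen with earlier results of these data known. Csf1r, Csf2ra, Fcgr3, Clec4n and Kit stand on more than 1 list or are members themselves, and of 7 B cell genes none is named here.

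Each array's mouse has a number in the labels. Equal numbers in both sorts of a state were taken as 1 mouse, as the labels' source names give it. The 11 such pairs had correlations of -0.05 to 0.15 (median 0.02) of their deviations from the group means. Equal numbers in different states come from different mice and share only a number. No 2 arrays were identical, and the highest correlation between arrays was 0.9315. Alternatives were quantile normalization, centring on array medians, an offset of 16 before log2, dim probe sets left out, only the compared arrays, eBayes with trend and robust, a replicate block, array weights and leaving out each array. Tables were handled with pandas 2.3.3 in Python 3.11.15, and matplotlib 3.10.9 drew the figures.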

Additional observations from a re-analysis of the deposited data

Results flagged for a closer look

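The change from telogen differed between the dermal and epidermal sorts for 4 probe sets, as a test of the difference itself (limma interaction, dermis minus epidermis, all 24 arrays). Csf1r differed in the neonatal comparison, by -6.53 ± 0.95 (SE, adjusted p = 0.000439) for 1419872_at and by -3.25 ± 0.66 (adjusted p = 0.00619) for 1419873_s_at, as the gene was low in neonatal dermis and high in neonatal epidermis. C1qc differed in the sustained comparison by 7.0 ± 1.06 (adjusted p = 0.00127), a size that is poorly known because all dermal arrays and the sustained epidermal arrays were at the dim end. Fcer1g differed in the sustained comparison by 3.31 ± 0.85 (adjusted p = 0.0423), with adjusted p between 0.0607 and 0.112 where leaving out 1 array ended the call.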

How the results depend on the processing

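No difference of a member turned its sign among the calls under any alternative run. The number of the 8 probe sets called was 2 in dermis neonatal minus telogen whichever array was left out. In dermis transient minus telogen 1 was called with an offset of 16, against 0. In dermis sustained minus telogen 1 was called with the replicate block, against 2. In dermis sustained minus transient 0 were called with only the compared arrays and 0 with the replicate block, against 1, and 0 to 2 on leaving out an array. In epidermis transient minus telogen 5 were called with an offset of 16, 5 with trend and robust eBayes, 0 with only the compared arrays and 0 with the replicate block, against 3, and 0 to 3 on leaving out an array. In epidermis sustained minus telogen 7 were called with trend and robust eBayes and 0 with the replicate block, against 4, and 1 to 4 on leaving out an array. Dermis minus epidermis gave, with dim probe sets left out, 5 of the 5 remaining probe sets in neonatal and 3 of 5 in telogen arrays, because fewer were tested. In transient arrays, counting both directions, it gave 2 with quantile normalization and 0 with only the compared arrays, against 4. Leaving out an array gave 7 to 8 in neonatal, 5 in telogen, 3 to 5 in transient and 0 to 1 in sustained arrays. The transient interaction gave 1 with an offset of 16 and 0 to 1 on leaving out an array. The sustained interaction gave 1 with quantile normalization, 1 with arrays centred on their median and 1 with dim probe sets left out, against 2, and 1 to 2 on leaving out an array. Except for the dim probe sets the cause was not tested. Numbers shared between states do not pair the mice, so the block there spends degrees of freedom on a number alone. For dermis minus epidermis, where the number is the mouse, the consensus correlation was 0.02 and the block changed no call. Leaving out epidermal transient replicate 4, the array of highest median, from comparisons without its group was chosen after seeing the data and changed none of 7 counts, although in sustained minus telogen epidermis Aif1 (adjusted p = 0.019) was called in place of the second Csf1r probe set (adjusted p = 0.0513). Dim values bound what can be said of C1qc and C1qb in dermis.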
